A study of Sus scrofa with 9 samples.

Results

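The cytosolic ribosomal proteins, which with ribosomal RNA build the small (40S) and large (60S) ribosome subunits, were followed in the mammary gland of sows before and after farrowing. Members were the probe sets annotated to a single gene symbol that begins RPL or RPS and continues with a digit, together with RPLP0, RPLP1, RPLP2 and RPSA. RPS6 kinase symbols and pseudogene names were left out. The rule found 96 of the 23999 endogenous probe sets, which stood for 64 genes. Of these probe sets 89 were bright enough for testing, and they covered 63 genes: 38 genes of the 60S subunit, 24 of the 40S subunit and RPS19BP1. RPS19BP1 fits the symbol rule but encodes a protein that binds RPS19 and is no part of the ribosome. The gene without a tested probe set was RPS15A, whose only probe set read between 6.05 and 36.6.

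All 6 sows were Large White and ate a corn and soybean meal diet, and the labels name no treatment or genetic change. Each was biopsied on days -17, 1 and 17 relative to parturition, the first within 2 days of its date, from the anterior glands of the right side. Total RNA was pooled in equal volumes from 2 sows, which gave 3 pools on each of 3 days and 9 Affymetrix porcine arrays, so 1 sow's level cannot be read from any value. Whether pool 1 holds the same sows on each day is not stated. The p-values therefore weigh differences between days against the spread between pools. The main fit treated the 9 pools as independent, although the same sows were biopsied on each day.

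Ribosomal protein genes are among the most abundantly transcribed genes of most cells, and their mRNAs share a 5′ terminal oligopyrimidine tract through which mTORC1 signalling controls their translation. Each ribosome holds nearly all of these proteins in single copy, and the acidic stalk proteins in several. In the mammary gland the secretory epithelium expands in pregnancy and, after farrowing, makes milk protein at a high rate, which draws on ribosomes.

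Array signals are MAS5 intensities in arbitrary units, scaled so that the trimmed mean of each array lay between 500.088 and 500.112. Pools of 1 day had Spearman correlations of 0.954 to 0.976 over probe sets. A gene's difference is given on the log2 scale with its standard error in limma (n = 3 pools per day) and with the adjusted p of that fit over all 15519 tested probe sets. A gene was called at an adjusted p of at most 0.05 and is represented by its brightest tested probe set, judged by the mean log2 signal. Brightness differs between probe sets for reasons of design, so it is no measure of which gene had more transcript. The hybridization control transcripts, which are added to every sample, differed by day, with medians of 2319 to 2508 on day -17, 3015 to 3278 on day 1 and 5703 to 6108 on day 17. The 3′ to 5′ signal ratio of GAPDH was 2.38 to 3.06, 2.25 to 2.32 and 1.77 to 1.98 on the 3 days, and that of actin was 7.01 to 7.26, 8.39 to 9.57 and 14.5 to 15.9. The part of these differences in the results was not tested.

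Most ribosomal protein genes lay near the top of the intensity range. Of the 63 genes, 54 had a mean rank above the 99th percentile of all probe sets. Between 55 and 59 of the 240 probe sets above that percentile on an array were members. Together the member probe sets carried 7.17% to 8.75% of an array's summed signal. The brightest endogenous probe set was RPS18, a protein of the 40S head, on 8 of the 9 arrays; on day 17 pool 2 it was the casein CSN1S2. RPS18 read 40167, 39527 and 54155 on day -17, 46317, 66327 and 64133 on day 1, and 83601, 81956 and 83676 on day 17. Its day 17 values lay above all the others and close together.

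**Figure D1:**
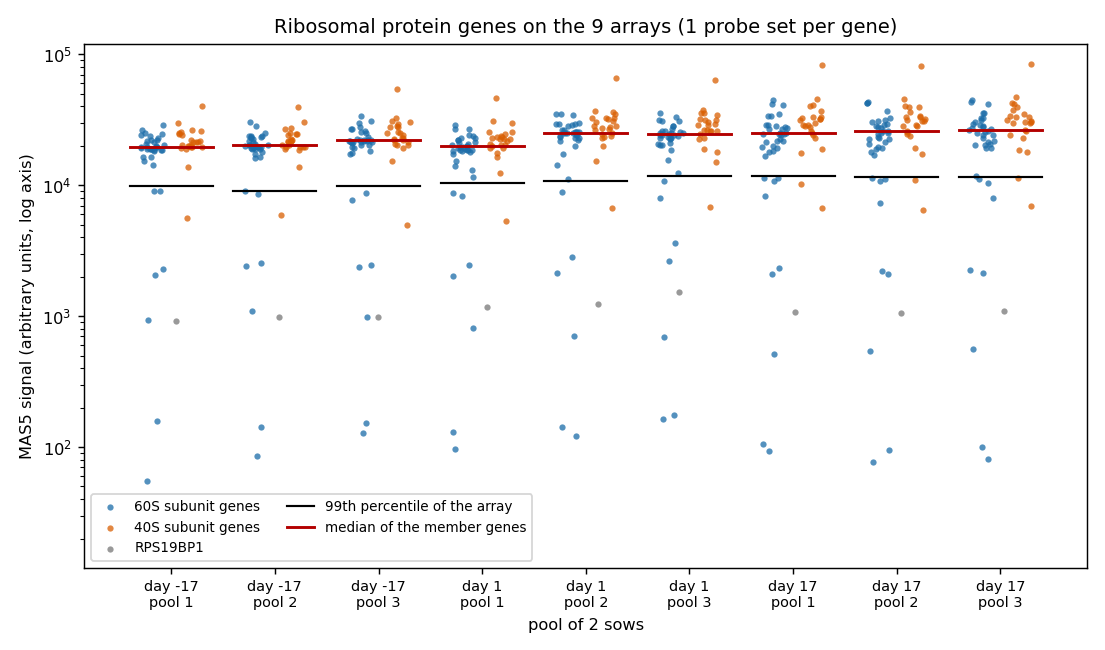
Signal of each ribosomal protein gene (log axis, MAS5 arbitrary units) on each of the 9 arrays, blue for 60S genes, orange for 40S genes and grey for RPS19BP1, with the median of the member genes in red and the array's 99th percentile in black. Most genes sit in a narrow band above the 99th percentile, and the band's median moves from 19770 on day -17 pool 1 to 26574 on day 17 pool 3.

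Apart from RPS18 the members were crowded into a narrow band. The other genes with the highest mean log2 signals were RPS3A, a protein of the 40S platform, RPS27A, which is made as a fusion with ubiquitin, and RPL5, which carries 5S ribosomal RNA into the 60S subunit. Signals above 50000 came from 0 or 1 probe set on day -17 arrays, from 0 to 6 on day 1 arrays and from 27 or 28 on day 17 arrays. No more than 1 of these was a member on any array, namely RPS18. The range above the ribosomal protein band was thus nearly empty before farrowing and was occupied on day 17. At the other end stood RPL30, RPL26, RPL37 and RPS19BP1. RPL30 (54.9 to 176) and RPL26 (76.4 to 163) were represented by dim probe sets only, and neither was called in any comparison.

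The median signal of the 63 genes was 19770, 20195 and 22043 in the day -17 pools, 20049, 25172 and 24736 on day 1, and 25007, 25836 and 26574 on day 17. All day 17 pools lay above all day -17 pools. On day 1 pool 1 read as low as the day -17 pools, and it was the lowest day 1 pool for 60 of the 63 genes. The median SD between pools of 1 day was 0.098 for members on day -17, 0.20 on day 1 and 0.060 on day 17, in log2 units. Over all tested probe sets these medians were 0.22, 0.26 and 0.21, above those of the members on each day. Most members are brighter than most tested probe sets, and the spread of other probe sets of like brightness was not compared. By day means, 41 genes ran upward from day -17 through day 1 to day 17, and 9 ran downward.

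In a limma F test over the 3 days, 30 of the 63 genes differed among days, 15 of each subunit. Over all genes the share was 47.8%, so the members' count was near the background. With each pool left out in turn the count ran from 21 (without day -17 pool 1 or any single day 17 pool) to 45 (without day 1 pool 1). The shares of all genes in those fits are not given here.

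The first comparison asked what changed between late pregnancy and the first day of lactation. Of the 63 genes, 2 rose and 2 fell from day -17 to day 1 and 59 were not called, where 15.3% of all genes rose and 10.4% fell. RPS12, a protein of the 40S beak, read 19654, 20268 and 22043 on day -17 and 23309, 28186 and 29293 on day 1. The days did not overlap, and RPS12 rose by 0.38 ± 0.11 (limma adjusted p = 0.0374). RPS19BP1, which is no ribosomal protein, went from 921, 978 and 977 to 1165, 1230 and 1521 and rose by 0.44 ± 0.13 (limma adjusted p = 0.0375).

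Both genes that fell belong to the 60S subunit. RPL34 read 15297, 16384 and 17745 on day -17 and 11502, 14158 and 12373 on day 1, a difference of -0.38 ± 0.11 (limma adjusted p = 0.0326). The dimmer RPL37, a zinc finger protein of the 60S subunit, read 930, 1104 and 991 on day -17 and 809, 701 and 690 on day 1, a difference of -0.46 ± 0.13 (limma adjusted p = 0.0328). In both genes every day 1 pool was below every day -17 pool. The other, dimmer RPL34 probe set differed by 0.24 and was not called (limma adjusted p = 0.495). The RPL34 call was lost with a mean over its probe sets (limma adjusted p = 0.771) and with median centring (limma adjusted p = 0.168). The median difference over the 63 genes was 0.16, against -0.07 over all tested probe sets. Without day 1 pool 1, 30 genes (47.6%) rose, 1 fell and the median was 0.28, where 1048 of all 5633 genes rose and 748 fell. With the pool number as a block, which the deviations of same-numbered pools bear out for these 2 days, 4 genes rose with a fixed block and 3 with a random one. Among all 5670 genes 968 and 983 rose in these fits. None of the 4 calls held with every pool left out in turn: the highest limma adjusted p was 0.122 for RPS12 and 0.121 for RPS19BP1, both without day 1 pool 3, 0.109 for RPL34 without day -17 pool 3 and 0.109 for RPL37 without day -17 pool 2. The counts and their balance also depended on the scaling of the arrays. Quantile normalization gave 1 rise and 12 falls with a median of -0.10, where 16.3% of all genes rose and 9.59% fell. Scaling to the hybridization controls gave 0 rises and 22 falls with a median of -0.22, where 7.14% of all genes rose and 34.9% fell. Median centring gave 3 rises and 0 falls with a median of 0.28, where 18.5% rose and 6.83% fell.

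From day 1 to day 17, the step from early to established lactation, 5 genes rose and 2 fell. Among all genes 8.02% rose and 8.57% fell. RPS27, a zinc finger protein of the 40S subunit, read 19324, 23834 and 23052 on day 1 and 32703, 31144 and 29838 on day 17, and rose by 0.51 ± 0.11 (limma adjusted p = 0.0137). RPL5 read 26844, 34649 and 31410 and then 41190, 42685 and 43609, and rose by 0.46 ± 0.11 (limma adjusted p = 0.0235). RPLP0, the base of the 60S stalk that recruits elongation factors, read 28896, 34768 and 33495 and then 44700, 43050 and 41614. It rose by 0.42 ± 0.10 (limma adjusted p = 0.0229). RPS3A (0.42 ± 0.11, limma adjusted p = 0.032) and RPS26, which lies at the mRNA exit of the 40S subunit (0.44 ± 0.13, limma adjusted p = 0.0436), also rose. In these 5 genes all day 17 pools were above all day 1 pools.

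RPL3, which reaches toward the peptidyl transferase centre of the 60S subunit, ran the other way, from 13163, 17341 and 15464 on day 1 to 11265, 11295 and 11237 on day 17. It fell by 0.43 ± 0.11 on the log2 scale (limma adjusted p = 0.033). RPS9, at the mRNA entry of the 40S subunit, went from 12459, 15451 and 14996 to 10170, 10984 and 11374, a difference of -0.39 ± 0.11 (limma adjusted p = 0.0426). The 3 pools of day 17 were the lowest of the 9 for both genes. The median difference over the members was 0.16, against -0.01 over all tested probe sets, and it was 0.03 without day 1 pool 1. Each of the 7 calls was lost when at least 1 pool was left out: for RPS27 the adjusted p reached 0.0546 (without day 17 pool 1), and for the others it reached between 0.0793 (RPL5, without day 17 pool 3) and 0.132 (RPS9, without day 17 pool 1). With a mean over probe sets the rises of RPLP0 and RPS27 were no longer called (limma adjusted p = 0.321 and 0.251). Quantile normalization gave 0 rises and 12 falls among the members, where 7.57% of all genes rose and 8.25% fell. RPL5, RPLP0 and RPS3A then turned negative. Scaling to the hybridization controls gave 0 rises and 63 falls, where 0.635% of all genes rose and 79.3% fell, and all 5 genes that had risen turned negative. Median centring gave 1 rise and 2 falls, where 6% of all genes rose and 8.84% fell.

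Day 17 against day -17 set established lactation against late pregnancy, and it shares its samples with both comparisons above. Of the 63 genes 31 (49.2%) rose as the arrays were deposited, 4 fell and 28 were not called, whereas 0 rose under quantile normalization or scaling to the hybridization controls. Among all genes 23.8% rose and 23.8% fell. The median difference over the members was 0.31, a fold of 1.24, against -0.08 over all tested probe sets. Among the 80 other genes with a mean rank above the 99th percentile, 53.8% rose and 5% fell, and their median was 0.46. The members' share of rises as deposited was thus above that of all genes. The 80 genes were chosen by rank over all arrays, day 17 included, so a rise could itself bring a gene in. Not all members lie above that percentile either, so the shares of members and of these 80 genes cannot be weighed against each other. In 44 member genes all day 17 pools lay above all day -17 pools, and in 8 they lay below, where the shares of all genes were 30.2% and 30.6%. With 1 pool left out, 24 (without day 17 pool 3) to 39 (without day 1 pool 1) genes rose and 3 or 4 fell. Over all genes 1139 of 5626 rose without day 17 pool 3 and 1427 of 5633 without day 1 pool 1.

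**Figure D2:**
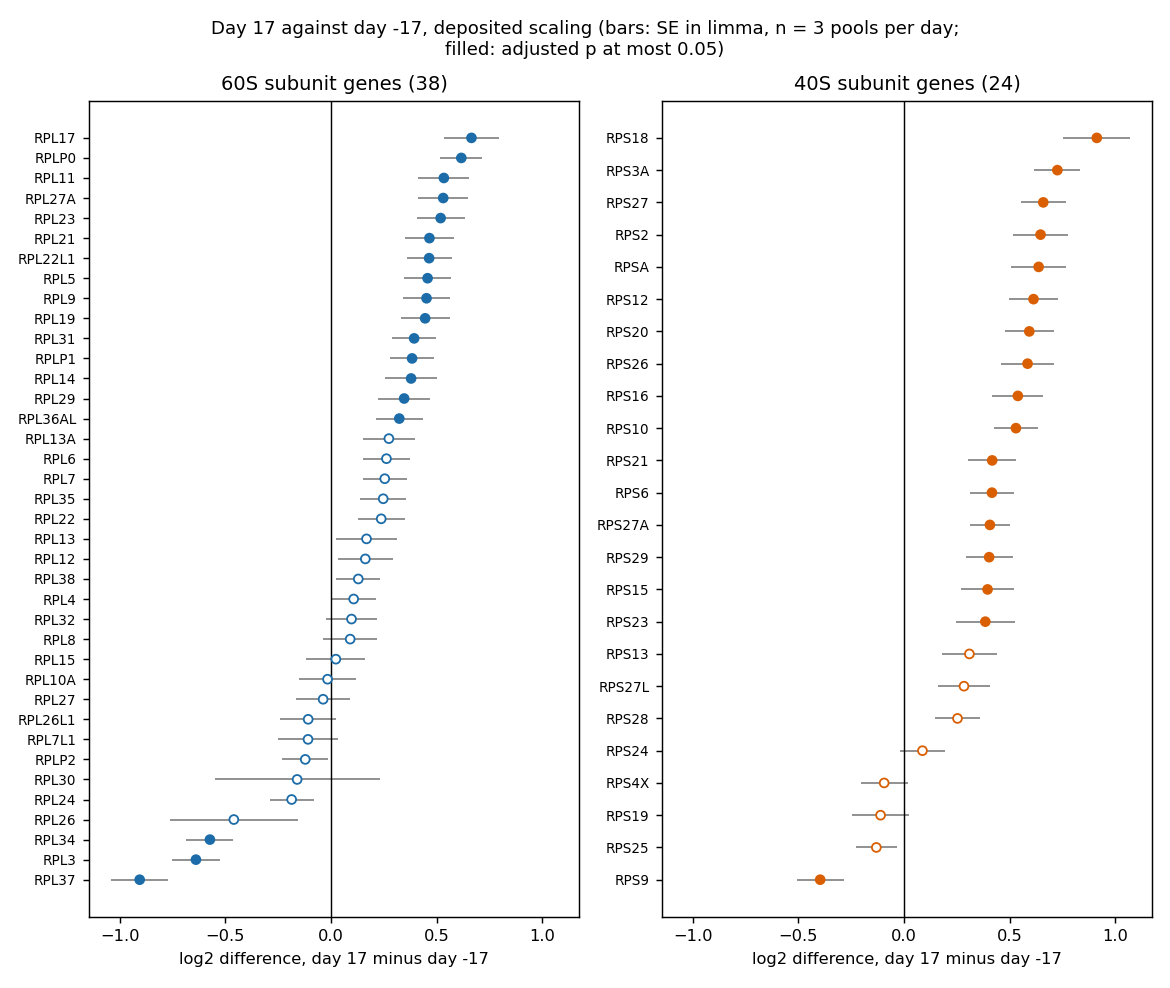
Log2 difference between day 17 and day -17 with its limma standard error (n = 3 pools per day) for 38 genes of the 60S subunit and 24 of the 40S subunit, filled where the adjusted p was at most 0.05. RPS18 stands highest at 0.91, a value at the top of the signal range, which is -0.07 under quantile normalization and -0.40 under scaling to the hybridization controls, and RPL37 the largest fall at -0.91.

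In the 40S subunit 16 of 24 genes rose as deposited and RPS9 fell, with a median of 0.41, where 23.8% of all genes rose and 23.8% fell. RPS18 rose by 0.91 ± 0.16 as deposited (limma adjusted p = 0.00125), the largest difference among the brightest probe sets. Its day 17 signals of 83601, 81956 and 83676 stood at the top of the arrays, level with the 82250 of CSN1S2 on day 17 pool 2, and whether a signal ceiling limits them was not tested. Its other probe sets differed by 0.40 and -0.02, so the size of its rise and its place in the order are uncertain. RPS3A read 26223, 27158 and 30491 on day -17 and 45676, 45745 and 47013 on day 17, and rose by 0.73 ± 0.11 (limma adjusted p = 0.000548). RPS27 rose by 0.66 ± 0.11, from 19820, 18847 and 20661 on day -17 (limma adjusted p = 0.000784). RPS2, which sits by the mRNA entry, read 25567, 24495 and 27788 and then 40539, 39697 and 41465, and rose by 0.65 ± 0.13 (limma adjusted p = 0.00278). RPSA, also known as the laminin receptor, read 21260, 22577 and 25028 and then 32966, 36529 and 37537, a rise of 0.64 ± 0.13 (limma adjusted p = 0.00298). RPS12 read 28810, 33102 and 32934 on day 17 and rose by 0.61 ± 0.11 (limma adjusted p = 0.00189). These 6 genes had no overlap between the 2 days. RPS9 read 13721, 13884 and 15213 on day -17 and fell by 0.40 ± 0.11 on the log2 scale (limma adjusted p = 0.0151), which was lost with median centring (0.0816), without day 17 pool 1 (0.0593) and without day -17 pool 3 (0.0571).

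In the 60S subunit 15 of 38 genes rose as deposited and 3 fell, with a median of 0.24, beside the same 23.8% each way over all genes. RPL17, which lines the exit tunnel of the nascent peptide, read 25270, 25065 and 30879 on day -17 and 41457, 42325 and 44432 on day 17, and rose by 0.67 ± 0.13 (limma adjusted p = 0.00249). RPLP0 rose by 0.62 ± 0.10, from 26631, 28122 and 29640 (limma adjusted p = 0.000833). Of its stalk partners, RPLP1 rose by 0.38 ± 0.10 (limma adjusted p = 0.0124; 0.0508 without day 17 pool 3), and RPLP2 differed by -0.12 ± 0.11, which was not called (limma adjusted p = 0.382). RPLP2 read 7362 to 9057 over the 9 pools.

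The 3 genes of the 60S subunit that fell were RPL37, RPL3 and RPL34. RPL37 read 511, 541 and 561 on day 17, below its day -17 range of 930 to 1104, and differed by -0.91 ± 0.13 (limma adjusted p = 0.000516). RPL3 read 16424, 17897 and 18362 on day -17 and differed by -0.64 ± 0.11 (limma adjusted p = 0.0015). RPL34 read 10712, 10710 and 11782 on day 17 and differed by -0.57 ± 0.11 (limma adjusted p = 0.00233). All 3 stepped down on both occasions by their day means, and all 3 calls held when any single pool was left out, with a highest adjusted p of 0.0117 (RPL34, without day -17 pool 3). RPL3 and RPL37 had 1 probe set each, and the other, dimmer RPL34 probe set differed by -0.58 and was not called (limma adjusted p = 0.073).

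Several members are paralogs or carry a paralog's name, and they moved less than the extremes. RPL22L1, the paralog of RPL22, read 19068, 19002 and 19130 on day -17 and 24784, 27894 and 26350 on day 17. It rose by 0.46 ± 0.11 (limma adjusted p = 0.00537). RPL36AL, the paralog of RPL36A, rose by 0.32 ± 0.11 (limma adjusted p = 0.0372; 0.105 without day 17 pool 1). RPS27L, the paralog of RPS27, differed by 0.28 ± 0.12 and was not called (limma adjusted p = 0.0795; 0.0327 without day 1 pool 1). RPL26L1 and RPL7L1 each differed by -0.11 and RPS19BP1 by 0.17, and none of these was called. Because paralogs and the many processed pseudogenes of ribosomal protein genes are near copies, a probe set can bind more than the transcript it is named for.

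The sign of these rises depended on how the arrays were scaled. Each array had been scaled to the same trimmed mean. Centring on the array median gave 31 rises, 3 falls and a member median of 0.39 between day -17 and day 17, and 26.0% of all genes then rose and 20.4% fell. Scaling each array to its 27 hybridization control probe sets gave 0 rises and 63 falls, with a member median of -0.999 beside a median of -1.39 over all tested probe sets. On that scale 3.10% of all genes rose and 83.9% fell. Quantile normalization, which forces the same set of intensities onto each array, gave 0 rises and 37 falls (58.7%), with a member median of -0.22, where 25.3% of all genes rose and 22.9% fell. For RPS18 the difference was 0.91 as deposited, -0.40 with control scaling and -0.07 with quantile normalization. The deposited, median and control scalings each multiply an array by 1 factor, so the distance of the members from the rest is the same under all 3. Their median exceeded that of all tested probe sets by 0.23 from day -17 to day 1, 0.17 from day 1 to day 17 and 0.39 from day -17 to day 17. Under quantile normalization this distance was -0.10, -0.11 and -0.20.

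**Figure D3:**
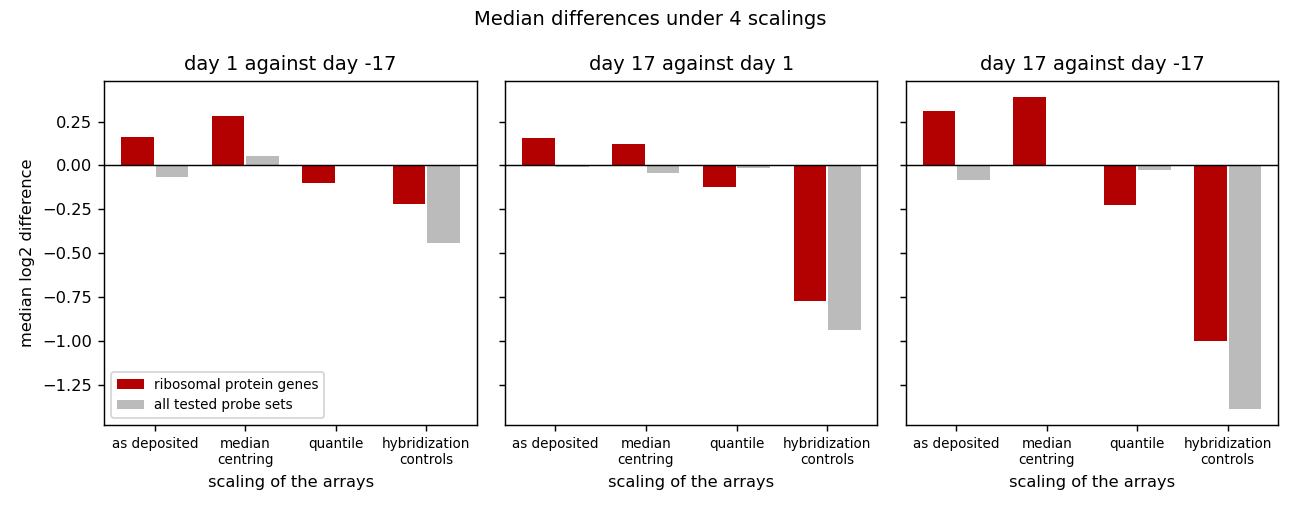
Median log2 difference of the 63 ribosomal protein genes (red) and of all 15519 tested probe sets (grey) under 4 scalings of the arrays, for the 3 comparisons. The members' median for day 17 against day -17 runs from 0.39 with median centring to -0.999 with scaling to the hybridization controls.

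Across 5 scalings (deposited, median, quantile, hybridization controls and the members' own median) no member rose in every one, in any comparison. Scaling to the hybridization controls gave 0 rises in each comparison, which settled this in advance. It gave 63 falls among the 63 genes from day 1 to day 17 and from day -17 to day 17, so it could not separate the falls below. RPL3 fell in all 5 from day 1 to day 17. RPL3, RPL34 and RPL37 fell in all 5 from day -17 to day 17. No gene did so from day -17 to day 1. In bulk tissue a change in RNA per cell and a change in the share of cells of a type cannot be told apart.

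Set against the members' own median, which removes any factor common to an array, the members drew apart from each other. From day -17 to day 17, 15 genes (23.8%) were higher relative to the median and 19 (30.2%) were lower at the same threshold. On that centring 14.1% of all genes were higher and 38.8% lower. The centring sets the members' median near 0 by construction, while the median of all tested probe sets became -0.40. The members' shares therefore cannot be weighed against those of all genes on this scale, in any of the 3 comparisons. Of the 15, 10 belonged to the 40S subunit and 5 to the 60S subunit, and of the 19, 5 and 14. RPS18 (0.59 ± 0.09), RPS3A (0.40 ± 0.05), RPL17 (0.34 ± 0.06) and RPS27 (0.34 ± 0.07) stood highest, and RPLP0 stood at 0.30 ± 0.06. Under quantile normalization the member median was -0.22. There RPS3A (-0.25), RPL17 (-0.22) and RPLP0 (-0.34) stood near or below it, RPS18 (-0.07) stood above it and RPS27 was not called (limma adjusted p = 0.215). The order of these genes within the family therefore depends on the scaling. The lowest were RPL37 (-1.23 ± 0.18), RPL3 (-0.96 ± 0.07), RPL34 (-0.89 ± 0.08) and RPS9 (-0.72 ± 0.07). RPL24, which bridges the subunits and was chosen here after its values were seen, was not called as deposited (-0.19 ± 0.10) but was lower relative to the median by -0.51 ± 0.07 (limma adjusted p = 0.000245). From day 1 to day 17, 10 (15.9%) were higher and 9 (14.3%) lower, beside 4.11% and 13.6% of all genes. From day -17 to day 1, 1 (RPS12, 1.59%) was higher and 6 (9.52%) were lower, beside 10.3% and 15.9% of all genes.

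The median of the 24 genes of the 40S subunit minus that of the 38 genes of the 60S subunit was computed within each pool. It was 0.14 to 0.16 on day -17, 0.17 to 0.26 on day 1 and 0.31 to 0.43 on day 17, in log2 units. The ranges of the 3 days did not overlap. Since probe sets differ in brightness, only its movement between days can be read and not its sign. Without RPS18 the ranges were 0.10 to 0.15, 0.16 to 0.25 and 0.30 to 0.43. Under quantile normalization they were 0.15 to 0.22, 0.24 to 0.30 and 0.24 to 0.34, so that day 1 and day 17 overlapped and day -17 remained the lowest. With 3 pools against 3 an exact permutation test cannot give a p under 0.1, and none was made.

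**Figure D4:**
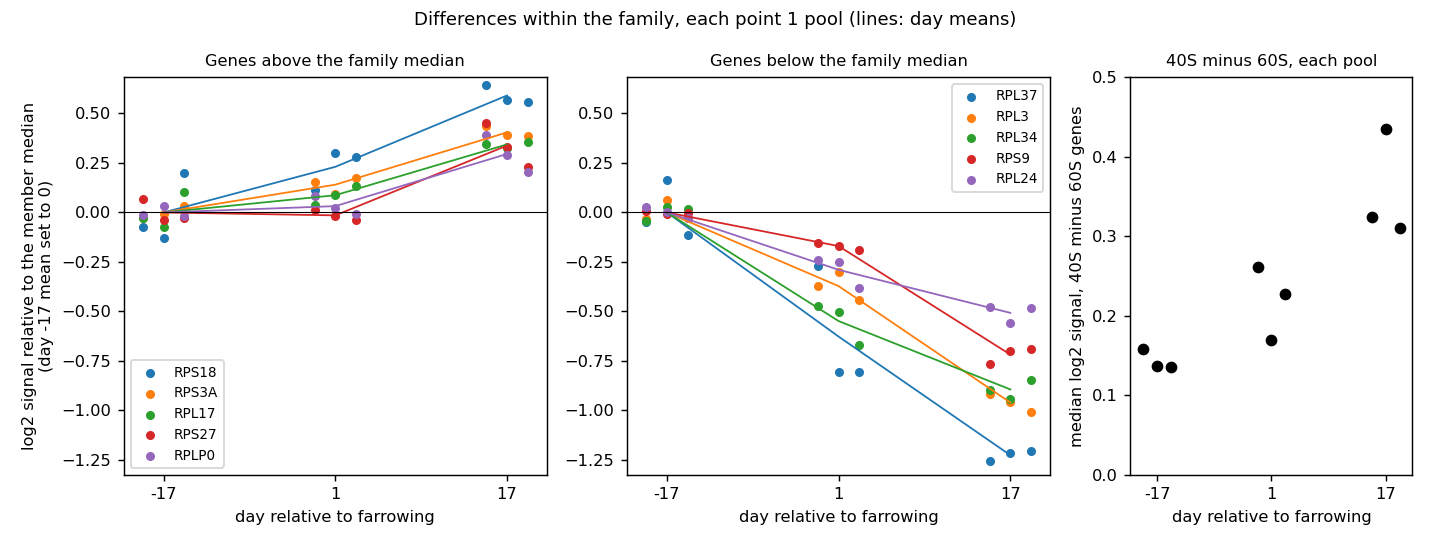
Log2 signal as deposited relative to the median of the member genes, with the day -17 mean set to 0, for 5 genes above (left) and 5 below (middle), and the 40S minus 60S median difference (right), by day; each point is 1 pool of 2 sows and lines join day means. RPS18 reaches 0.59 and RPL37 -1.23 on day 17, and the subunit difference moves from 0.14 to 0.16 on day -17 to 0.31 to 0.43 on day 17.

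Different probe sets of 1 gene often disagreed. In 22 genes more than 1 probe set was tested, which gave 26 pairs of the brightest with another. From day -17 to day 17, 10 pairs had the same sign and 16 had opposite signs. Both probe sets were called in 7 pairs, 4 in the same direction and 3 in opposite directions. RPL17 (0.67 and 1.19), RPL23 (0.52 and 0.95), RPL31 (0.39 and 0.44) and RPS18 (0.91 and 0.40) rose on both probe sets. RPS18 had a further probe set at -0.02, which was not called. A further RPL23 probe set differed by -0.13 and was not called either (limma adjusted p = 0.607). RPL23 and RPL31, both of the 60S subunit, were named after their values were seen.

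The 3 genes called in opposite directions were RPS27A, RPS27 and RPL9. The bright RPS27A probe set read 29809, 30264 and 32616 on day -17 and 40696, 39887 and 42222 on day 17, a rise of 0.41 ± 0.10 (limma adjusted p = 0.00636). Its dim probe set read 604, 709 and 775 and then 311, 323 and 291, a difference of -1.17 (limma adjusted p = 0.000329). For RPS27 the values were 0.66 and -0.91, and the dim probe set read 2342, 1543 and 2766 on day -17 and 1412, 793 and 1333 on day 17. For RPL9, a 60S protein, they were 0.45 and -0.76. With a mean over probe sets all 3 genes turned negative, at -0.38 for RPS27A, -0.13 for RPS27 and -0.15 for RPL9. The direction of these 3 genes is therefore uncertain. With that mean the rises of RPLP0 and RPLP1 from day -17 to day 17 were no longer called (limma adjusted p = 0.855 and 0.883).

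**Figure D5:**
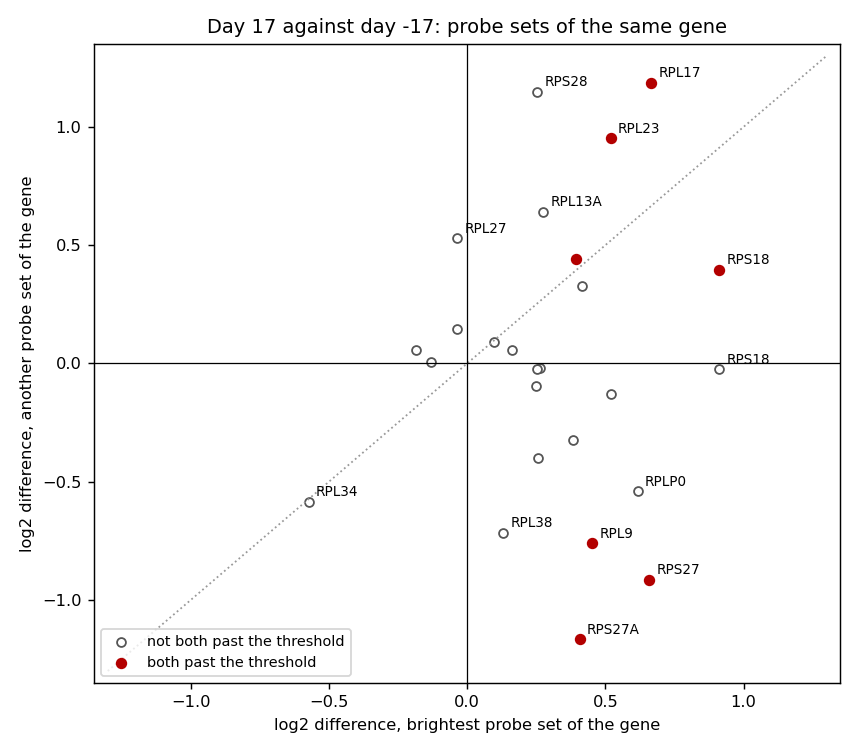
Log2 difference between day 17 and day -17 of a gene's brightest probe set (x axis) against that of another tested probe set of the same gene (y axis), 26 pairs from 22 genes, filled where both were called. The 3 filled points below the horizontal line are RPL9, RPS27 and RPS27A, and the dotted line marks equality.

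Some dim partners moved further than the bright probe set did. In 13 of the 26 pairs the other probe set had the larger absolute difference. RPS28, of the 40S subunit and chosen here after its values were seen, differed by 0.25 on its bright probe set, which was not called. Its dimmer probe set read 525, 517 and 632 on day -17 and 1251, 1234 and 1212 on day 17, a rise of 1.15 (limma adjusted p = 0.000155). Another probe set of RPS28, dimmer still, differed by -0.02 and was not called (limma adjusted p = 0.947), so the direction of RPS28 is uncertain. The dimmer RPLP0 probe set differed by -0.54 where the bright one rose by 0.62.

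Ribosome biogenesis genes, which process ribosomal RNA and assemble the subunits, were measured for 69 genes. Of these, 6 (8.7%) rose and 3 (4.35%) fell from day -17 to day 1, beside 15.3% and 10.4% of all genes. From day 1 to day 17, 3 (4.35%) rose and 9 (13%) fell, beside 8.02% and 8.57%. From day -17 to day 17, 7 (10.1%) rose and 16 (23.2%) fell, beside 23.8% each way over all genes, so the share of falls was near the background. The medians were 0.02, -0.26 and -0.28, where those of all tested probe sets were -0.07, -0.01 and -0.08. Over the longest interval RPF2, which places the 5S particle in the 60S precursor, differed by -1.34 ± 0.26 (limma adjusted p = 0.00227; 0.0596 with a mean over its probe sets) and TEX10 by -1.33 ± 0.31 (limma adjusted p = 0.00571). NOL6, of the 40S precursor, rose by 1.16 ± 0.21 (limma adjusted p = 0.00171). In the earlier steps NOL6 rose by 0.87, IMP3 rose by 0.81 and NSA2 fell by 0.65 up to day 1. The NOL6 call up to day 1 was lost without day 1 pool 3 (limma adjusted p = 0.0647) and with scaling to the hybridization controls (0.0747). From day 1 to day 17 the nucleolar protein GNL3 fell by 1.15, fibrillarin (FBL), the methyltransferase of ribosomal RNA, fell by 0.93, and the helicase DDX21 rose by 0.89. The call of GNL3 was lost without day 1 pool 3 and without day 17 pool 2 or 3 (highest adjusted p 0.067).

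Of 9 measured RNA polymerase I genes, which transcribe the large ribosomal RNA, 0, 0 and 1 rose and 1, 1 and 4 fell in the 3 comparisons. A single fall is 11.1% of these genes, near the 10.4% and 8.57% of all genes that fell in the first and second comparison. The 4 falls from day -17 to day 17 were 44.4% and the 1 rise 11.1%, beside 23.8% each way over all genes. POLR1E differed by -1.17 ± 0.16 up to day 1 and by -0.99 ± 0.16 over the longest interval (limma adjusted p = 0.000944 and 0.000828). TAF1D, of its promoter factor, differed by -0.83 ± 0.13 (limma adjusted p = 0.00086) and TAF1B by 0.77 ± 0.19 (limma adjusted p = 0.00694) from day -17 to day 17. With a mean over their probe sets both calls were lost. From day 1 to day 17 TAF1D differed by -0.57 ± 0.13 (limma adjusted p = 0.0215). That call was lost with a mean over its probe sets (0.615) and in 4 of the 9 fits with a pool left out.

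Of 16 measured other genes with terminal oligopyrimidine mRNAs, mostly translation factors, 2 rose and 6 fell from day -17 to day 1, 1 rose from day 1 to day 17, and 4 rose and 5 fell from day -17 to day 17. The last counts are shares of 25% and 31.2%, near the 23.8% of all genes in each direction. Up to day 1 the shares were 12.5% and 37.5%, beside 15.3% and 10.4% of all genes. From day 1 to day 17 the share of rises was 6.25%, beside 8.02%. HNRNPA1, an RNA-binding protein, fell by 1.07 up to day 1 and by 1.64 up to day 17, and NAP1L1, a histone chaperone, by 0.88 and 1.15. NAP1L1's call up to day 1 was lost in 6 of the 9 fits with a pool left out (highest adjusted p 0.109, without day -17 pool 2). TPT1 rose as deposited by 0.46, 0.68 and 1.14 in the 3 comparisons, but its call up to day 1 was lost without day -17 pool 2 or day 1 pool 3 (highest adjusted p 0.0531). Under quantile normalization its differences up to day 1 and from day 1 to day 17 were not called (limma adjusted p = 0.0685 and 0.911). With scaling to the hybridization controls its difference up to day 1 was not called (limma adjusted p = 0.466), and it turned to -0.25 from day 1 to day 17 and -0.17 from day -17 to day 17. Among 8 measured mTORC1 and MYC genes, 1, 0 and 1 rose and 1, 0 and 3 fell. A single gene is 12.5% of this list, near the 15.3% and 10.4% of all genes called up to day 1, and from day -17 to day 17 the falls were 37.5%, beside 23.8% of all genes. RHEB, the GTPase that activates mTORC1, rose by 1.36 ± 0.11 up to day 1 and by 1.71 ± 0.11 up to day 17 (limma adjusted p = 5.48e-05 and 4.54e-06). MYC, which drives ribosomal genes in many tissues, differed by -0.73 ± 0.16 and -0.94 ± 0.16 (limma adjusted p = 0.00939 and 0.00108). AKT1S1 differed by -0.53 ± 0.17 from day -17 to day 17 (limma adjusted p = 0.0245). Its call was lost in 5 of the 9 fits with a pool left out (highest adjusted p 0.0748, without day -17 pool 3). It was also lost under quantile normalization (0.0516) and median centring (0.059). FAU, a ribosomal protein made as a fusion outside the symbol rule, differed by 0.09, 0.08 and 0.17 and was not called.

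Markers of cell types moved beside these results. The summed signal of 8 markers of milk-producing epithelium was 60911 to 77246 on day -17, 178620 to 251460 on day 1 and 372400 to 374160 on day 17, and none was at 0. Of these, 6 (75%), 5 (62.5%) and 6 (75%) rose and 0, 0 and 1 (12.5%) fell in the 3 comparisons. Among all genes 15.3%, 8.02% and 23.8% rose and 10.4%, 8.57% and 23.8% fell. The 6 that rose from day -17 to day 17 were CSN1S1, CSN2, CSN3, LALBA, WAP and EPCAM. KRT8 fell by 1.48 (limma adjusted p = 0.0281), and KRT18 differed by -1.15 and was not called (limma adjusted p = 0.0854). Markers in this paragraph were named after their values were seen. The 4 fibroblast markers summed to 27672 to 35344, 14016 to 32211 and 12742 to 14437, the 2 B and plasma cell markers to 6134 to 9334, 5730 to 10538 and 27832 to 28308, and the 4 adipocyte markers to 8384 to 21742, 18184 to 23917 and 28484 to 28827. Between day -17 and day 17 the adipocyte markers LPL (mean 4235.5 to 12633) and FABP4 (10579 to 15885) rose, and ADIPOQ (313 to 13.1) fell. LEP (455 to 159) was not called. The adipocyte sum is set by its brightest markers and does not show these lower values. Of the T cell markers all 5 were on the array and 3 were tested, with sums of 447 to 720, 245 to 383 and 398 to 607. From day -17 to day 17, 0 fibroblast markers rose and 3 fell, 2 B and plasma cell markers rose, 2 adipocyte markers rose and 1 fell, and of the 3 tested T cell markers 0 changed. Over that interval 23.8% of all genes rose and 23.8% fell. Macrophage markers (2 measured, 1 rose) and endothelial markers (3 tested, 1 fell) summed to 1112 to 1744 and 5046 to 7903 on day -17 and 730 to 1114 and 4996 to 6223 on day 17. The part of cell composition in the ribosomal protein differences was not tested.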

How the data were processed

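Mammary biopsies of 6 sows on 3 days were measured as 9 pools of 2 sows. The deposited values are linear signal intensities of single probe sets. MAS5 made them, per the submitters' processing notes; its version and settings are not given in the sources used here. Of 24123 probe sets, 124 Affymetrix controls were left out. Tested were the 15519 probe sets that reached an array's 40th percentile on 3 or more of the 9 arrays. Log2 intensities, with no pseudocount, were fitted over all 9 arrays in limma 3.58.1 (R 4.3.3; lmFit, eBayes with an intensity trend), with day as the term, two-sided, and Benjamini-Hochberg adjustment within each comparison at 0.05. The code was tested on simulated data. Arrays have no sequencing depth; their number limits the precision.

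Gene symbols came from the platform annotation. Another 8 probe sets had several symbols, among them a ribosomal protein, and 3 had an RPS6 kinase symbol; none was a member. The members and gene lists were chosen with earlier results of these data known. Named were the called members (the 8 largest changes where a direction had over 16), the 4 brightest and 4 dimmest, paralogs, genes called in opposite directions, and in each list and comparison the 2 largest called changes in the commoner direction and the largest in the opposite one. Genes named outside this rule are said to be so.

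Within a day the pools are numbered 1 to 3. Deviations from the day mean correlated over probe sets between same-numbered pools at 0.235 to 0.506 (days -17 and 1), 0.105 to 0.130 (days -17 and 17) and 0.0960 to 0.107 (days 1 and 17); differently numbered pools gave -0.387 to 0.113, -0.0739 to -0.0421 and -0.0768 to -0.0268. In the first 2 comparisons all 3 pairs exceeded 0.1. The pairing comes from these values, not from the labels. Alternatives were other scalings, filters, a pseudocount of 16, no trend, the 6 compared arrays alone, the pool number as a block, a mean over probe sets and each pool left out.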

Additional observations from a re-analysis of the deposited data

Results flagged for a closer look

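Control probe sets for ribosomal RNA, which were left out of the tests, carried a signal that differed by day. The 28S control probe set had a mean of 3857 on day -17 (3435 to 4220 in the 3 pools), 24498 on day 1 (22639 to 27205) and 47471 on day 17 (45144 to 48743), a fold of 12.3 from day -17 to day 17. The days did not overlap. A second 28S control probe set had means of 4171, 17208 and 33453, a fold of 8.02. An 18S control probe set had means of 3358, 14811 and 32387, a fold of 9.65, also without overlap. Another 18S control probe set ran the other way, with means of 1589, 416 and 599, a fold of 0.377. The 5S control probe set was dim, with means of 80.7, 87.7 and 106. These signals were noticed because they lie outside the measured mRNAs and differed by day. The first 28S control rose from 3857 to 24498 between day -17 and day 1. At that step 2 of the 63 ribosomal protein genes rose and 2 fell, beside 15.3% and 10.4% of all genes. What part these signals have in the ribosomal protein differences was not tested.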

How the results depend on the processing

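The pseudocount of 16 kept the direction and the call of all 61 gene results named in the text. The 9 arrays and 3 pools per day limit what can be called, and the brightest members lie where few probe sets stood above them before farrowing. Apart from those shown by an alternative's construction, the causes of the changes below were not tested.

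Under quantile normalization the ribosomal protein genes gave 1 rise and 12 falls up to day 1 (median -0.10), 0 rises and 12 falls from day 1 to day 17 (-0.13) and 0 rises and 37 falls from day -17 to day 17 (-0.22). Turned negative were, from day 1 to day 17, RPL5 (-0.032), RPLP0 (-0.088) and RPS3A (-0.16), and from day -17 to day 17, RPL17 (-0.22), RPL22L1 (-0.019), RPL5 (-0.53), RPL9 (-0.26), RPLP0 (-0.34), RPLP1 (-0.11), RPS18 (-0.073), RPS2 (-0.22), RPS27A (-0.62), RPS3A (-0.25) and RPSA (-0.021). Median centring gave 0 falls up to day 1 and 1 rise from day 1 to day 17.

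Scaling to the hybridization controls gave 0 rises and 22 falls up to day 1 (median -0.22), 0 and 63 from day 1 to day 17 (-0.77) and 0 and 63 from day -17 to day 17 (-0.999), and the F test then called 63 genes. RPS12 turned to -0.0008 up to day 1. From day 1 to day 17 DDX21 (-0.039), RPL5 (-0.47), RPLP0 (-0.51), RPS26 (-0.49), RPS27 (-0.42), RPS3A (-0.51) and TPT1 (-0.25) turned negative. From day -17 to day 17 so did NOL6 (-0.14), RPL17 (-0.64), RPL22L1 (-0.84), RPL36AL (-0.98), RPL5 (-0.85), RPL9 (-0.86), RPLP0 (-0.69), RPLP1 (-0.92), RPS12 (-0.70), RPS18 (-0.40), RPS19BP1 (-1.14), RPS2 (-0.66), RPS27 (-0.65), RPS27A (-0.90), RPS27L (-1.02), RPS3A (-0.58), RPSA (-0.67), TAF1B (-0.54) and TPT1 (-0.17).

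Chosen after seeing the data were centring on the members, leaving out RPS19BP1, RPL7L1 and dim members, and leaving out day 1 pool 1 as a doubted pool. Centring on the members sets their median near 0 by construction (-0.0072, 0.0028 and -0.012) and gave 1 rise and 6 falls, 10 and 9, and 15 and 19 in the 3 comparisons. Leaving out RPS19BP1 and the others gave 1 rise up to day 1, beside 865 of 5670 genes. Without a filter there were 1 rise and 1 fall up to day 1 and 1 and 0 from day 1 to day 17. Over all 6765 genes 771 rose and 493 fell up to day 1, and 383 rose and 395 fell from day 1 to day 17. A filter at the 60th percentile gave 8 rises (13.1%) from day 1 to day 17, beside 461 of 4618 genes. Without the intensity trend there were 0 rises and 1 fall, then 1 and 0, beside 755 and 486, then 350 and 342, of 5670 genes. The F test then called 19 members, and its share over all genes is not given here. With the 6 compared arrays alone there were 0 rises and 0 falls, then 1 and 0, beside 672 and 420, then 382 and 360, of 5670 genes. The members below the 99th percentile on every array had medians of -0.32 from day 1 to day 17 and -0.11 from day -17 to day 17. They are a small part of the members and include RPS19BP1 and the dim RPL26 and RPL30, so these medians do not stand for the family. A mean over probe sets turned RPL9 (-0.15), RPS27 (-0.13) and RPS27A (-0.38) negative from day -17 to day 17.

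With the pool number as a fixed replicate block 4 genes rose up to day 1 and 11 from day 1 to day 17, and as a random block 3 up to day 1 and 11 from day 1 to day 17. Among all 5670 genes 968 and 544 rose with the fixed block, and 983 and 568 with the random one. The block kept the direction and the call of all 61 named gene results.

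With each pool left out in turn, rises ran from 0 to 30 and falls from 0 to 2 up to day 1 (median 0.10 to 0.28), rises from 0 to 5 and falls from 0 to 3 from day 1 to day 17 (0.028 to 0.23), and rises from 24 to 39 and falls from 3 to 4 from day -17 to day 17 (0.28 to 0.33). Beside the highest counts of 30, 5 and 39 rises, 1048 of 5633, 366 of 5615 and 1427 of 5633 genes rose. Beside the lowest of 24, 1139 of 5626 genes rose. The F test called 21 to 45 members. No named gene changed direction.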
